A study of Mus musculus with 27 samples.

Results

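The fibrillar collagen chains are the polypeptides that build the collagen fibrils of connective tissue, and 10 of their genes were examined in the rectum of mice after local irradiation. Members were taken by symbol from the deposited gene count table (Col1a1, Col1a2, Col2a1, Col3a1, Col5a1, Col5a2, Col5a3, Col11a1, Col24a1 and Col27a1). Each had 1 row among the 19690 genes listed. The irradiated mice received a single 25 Gy X-ray dose to the lower pelvis under anesthesia and were killed 4 h later, or at 1 day, at 3 days, at 2 weeks or at 8 weeks post-irradiation (PI). Sham-irradiated mice were anesthetized only and killed at 4 h, 3 days, 2 weeks and 8 weeks, and the 4 h sham mice also served as controls for 1 day. All mice were female C57BL/6J and 8 to 10 weeks old when obtained. Each of the 9 groups held 3 mice, which gave 27 RNA-seq libraries of poly(A) RNA. A piece of rectal wall was sequenced without separating its cell types, so that more collagen RNA per cell and more collagen-making cells cannot be told apart.

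A fibrillar collagen molecule is a rod of wound chains that is secreted as a soluble procollagen, trimmed at its ends and packed side by side into a banded fibril. Type I (Col1a1 and Col1a2) and type III (Col3a1) form the bulk of fibrils in the gut wall, where fibroblasts of the submucosa and lamina propria and smooth muscle cells make them. Type V chains (Col5a1, Col5a2 and Col5a3) sit within the fibrils, start their assembly and limit their diameter. Col2a1 and Col11a1 are best known from cartilage, Col24a1 from developing bone and cornea, and Col27a1 from cartilage and developing bone. Excess type I and III collagen in the submucosa is a hallmark of late radiation injury of the bowel.

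Libraries held between 17966356 and 23281174 counts, with a median of 19777800. TMM scaling factors lay between 0.889 and 1.12. No 2 libraries of a group agreed within sampling noise, since the chi-square per degree of freedom between replicates was 10.3 or more. Levels are given as CPM, counts brought to a common library size with TMM factors. Differences were tested with edgeR's quasi-likelihood test on the counts, with 3 mice against 3, and the Benjamini-Hochberg adjustment covered all genes tested. A gene was called at an adjusted p under 0.05. Log2 fold changes are followed by a standard error (SE), and means by the SD over 3 mice. The SE was derived from the test, as the absolute log2 fold change over the square root of its F statistic.

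Together the chains took up 0.567% ± 0.155 of all counts in irradiated mice at 2 weeks PI, against 0.0783% ± 0.030 in sham mice. At 8 weeks PI the share was 0.434% ± 0.0693 in irradiated mice and 0.0535% ± 0.00976 in sham mice. The share at 3 days was 0.085% ± 0.0183 in irradiated mice, against 0.0354% ± 0.00311 in sham mice. Irradiated mice had 0.0394% ± 0.0131 at 4 h and 0.0508% ± 0.0175 at 1 day, where the 4 h sham mice had 0.0541% ± 0.0084. Type I and type III chains made up 79.5% to 88.5% of the chain counts in every library.

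Levels of different chains were compared as deposited FPKM, which divides by transcript length. In irradiated rectum at 8 weeks PI the order was Col3a1 (242 ± 28.9 FPKM), Col1a1 (189 ± 32.8), Col1a2 (183 ± 23.8), Col5a2 (31.6 ± 3.47), Col5a1 (20.8 ± 3.71), Col5a3 (3.63 ± 0.266), Col27a1 (1.41 ± 0.474), Col11a1 (1.29 ± 0.465), Col24a1 (0.90 ± 0.439) and Col2a1 (0.0217 ± 0.0231). Sham rectum at 8 weeks had Col3a1 at 33.1 ± 5.85 FPKM, Col1a2 at 25.5 ± 4.25, Col1a1 at 14.5 ± 2.96, Col5a2 at 3.97 ± 0.672, Col5a1 at 3.71 ± 0.597, Col27a1 at 0.929 ± 0.191, Col5a3 at 0.686 ± 0.106, Col11a1 at 0.187 ± 0.0722 and Col24a1 at 0.0926 ± 0.0286, and Col2a1 was listed at 0 in each mouse. Col1a1 lay below Col1a2 in every sham mouse and in every irradiated mouse up to 3 days PI. In irradiated mice at 8 weeks the ranges of Col3a1 and Col1a1, of Col1a1 and Col1a2, of Col27a1 and Col11a1, and of Col11a1 and Col24a1 overlapped. In sham mice at 8 weeks the ranges of Col3a1 and Col1a2, of Col5a2 and Col5a1, and of Col27a1 and Col5a3 overlapped.

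The genes are spread over 8 chromosomes, and their positions are given on NCBIM37 (mm9), the build named for the alignment. Col1a1 lies at chr11:94797538-94814356 (+), Col1a2 at chr6:4454814-4491543 (+), Col3a1 at chr1:45368383-45406551 (+) and Col5a2 at chr1:45431166-45560127 (-). Col3a1 and Col5a2 are neighbours on opposite strands. Col5a1 lies at chr2:27741945-27895034 (+), Col5a3 at chr9:20574494-20619511 (-), Col11a1 at chr3:113733458-113923636 (+), Col24a1 at chr3:144955436-145214975 (+), Col27a1 at chr4:62875038-62996025 (+) and Col2a1 at chr15:97806033-97835155 (-). Promoter sequences from RefSeq (GRCm38.p6) were found for 7 of the 10 genes, and all 7 matched NCBIM37 exactly once. The 250 bases before the start are shown for Col3a1 (chr1:45368133-45368382, + strand), the most abundant chain, for Col5a1 (chr2:27741695-27741944, + strand), which was called higher at the same times, and for Col27a1 (chr4:62876196-62876445, + strand), which was called at 3 days only. The Col27a1 window lies inside the annotated gene, as does that of Col1a2, which is not shown. Each is written 5′ to 3′, with motif letters on either strand in capitals, and no motif overlapped another in them.
Col3a1: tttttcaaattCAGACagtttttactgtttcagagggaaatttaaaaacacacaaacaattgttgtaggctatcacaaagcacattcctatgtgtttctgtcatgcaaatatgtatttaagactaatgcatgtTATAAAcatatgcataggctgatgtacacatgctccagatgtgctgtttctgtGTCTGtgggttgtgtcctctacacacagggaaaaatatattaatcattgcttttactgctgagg
Col5a1: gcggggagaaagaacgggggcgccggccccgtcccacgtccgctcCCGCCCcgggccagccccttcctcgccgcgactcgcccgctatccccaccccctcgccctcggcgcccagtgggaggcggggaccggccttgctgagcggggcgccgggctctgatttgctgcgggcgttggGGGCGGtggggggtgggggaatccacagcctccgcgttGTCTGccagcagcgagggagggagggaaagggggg
Col27a1: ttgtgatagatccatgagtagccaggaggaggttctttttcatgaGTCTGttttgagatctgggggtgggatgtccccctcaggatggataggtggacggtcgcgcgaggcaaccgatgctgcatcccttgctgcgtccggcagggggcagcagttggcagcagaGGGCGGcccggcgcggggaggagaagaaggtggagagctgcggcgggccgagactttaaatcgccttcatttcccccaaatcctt
The motifs searched on both strands were the CCAAT box, the TATA box as TATAAA, the GC box as GGGCGG, the AP-1 site as TGANTCA, and the SMAD-binding letters CAGAC. Col3a1 had TATAAA once and CAGAC 2 times, Col5a1 had GGGCGG 2 times and CAGAC once, and Col27a1 had GGGCGG once and CAGAC once. Of the 4 windows not shown, Col1a2 and Col11a1 each had CCAAT once, GGGCGG 2 times and CAGAC once, Col5a3 had CCAAT once and GGGCGG 2 times, and Col24a1 held none of the motifs. TGANTCA was in none of the 7 windows. Among the 250 bases before 32841 promoters of the same table, CCAAT was in 33.9%, TATAAA in 12.4%, GGGCGG in 32.7%, TGANTCA in 6.75% and CAGAC in 42.2%. A match of letters describes the sequence only.

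The type I chains were called higher at 3 days, at 2 weeks and at 8 weeks PI, each against the sham mice of that time. Against the 2-week sham mice neither was called at 3 days (0.22 for Col1a1 and -0.050 for Col1a2, edgeR adjusted p 0.601 and 0.908). Col1a1 had 42.2, 49.9 and 87.1 CPM in the 3 irradiated mice at 4 h PI, against 81, 77.7 and 95 CPM in the 4 h sham mice. Irradiated mice at 1 day had 113, 59.4 and 67.6 CPM. At 3 days the values were 181, 139 and 100.2 CPM in irradiated mice and 41.9, 46.6 and 52 CPM in sham mice. At 4 h and 1 day PI the irradiated and sham mice overlapped, and at 3 days they did not. Col1a1 was at 1592, 915 and 1666 CPM in irradiated mice at 2 weeks PI, against 112, 178 and 69.4 CPM in sham mice. At 8 weeks it had 972, 1302 and 1055 CPM in irradiated mice and 110.3, 71.7 and 86.9 CPM in sham mice. Every irradiated mouse at 2 and 8 weeks lay above every sham mouse of the study. Col1a1 rose 11.6-fold at 2 weeks (log2 fold change 3.54 ± 0.43, edgeR adjusted p = 0.00433) and 12.3-fold at 8 weeks (3.62 ± 0.20, adjusted p = 3.9e-05), and 2.96-fold at 3 days (1.56 ± 0.20, adjusted p = 0.00219). It did not pass the test at 4 h (-0.50 ± 0.24, adjusted p = 0.219) or at 1 day (-0.070 ± 0.23, adjusted p = 0.915).

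Col1a2, whose chain joins that of Col1a1 in most type I collagen, was called higher at the same 3 times. At 4 h PI Col1a2 had 82.3, 99.5 and 144 CPM in irradiated mice and 127, 136 and 145 CPM in sham mice. It had 151, 83.2 and 83.4 CPM in irradiated mice at 1 day. For 3 days, irradiated mice gave 200.3, 173 and 127 CPM, against 76.1, 80.5 and 103 CPM in sham mice. Irradiated and sham mice overlapped at 4 h and 1 day and were apart at 3 days. At 2 weeks PI irradiated mice had 1252, 761 and 1233 CPM of Col1a2 and sham mice 161, 253 and 104 CPM. Irradiated mice had 949.6, 1098 and 787 CPM at 8 weeks, against 170.4, 126 and 129 CPM in sham mice. It rose 6.28-fold at 2 weeks (log2 fold change 2.65 ± 0.38, edgeR adjusted p = 0.00653), 6.61-fold at 8 weeks (2.72 ± 0.18, adjusted p = 7.31e-05) and 1.90-fold at 3 days (0.93 ± 0.19, adjusted p = 0.0124). The 3-day call was lost without irradiated mouse 1 (adjusted p = 0.0532) or irradiated mouse 2 (adjusted p = 0.0523). That call was also lost against the sham mice of 4 h, 2 weeks and 8 weeks (0.31, -0.050 and 0.24, adjusted p 0.200, 0.908 and 0.278).

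Col3a1 encodes the only chain of type III collagen, the pliable partner of type I in the bowel wall and in vessels, and it had the highest count of the chains in all 27 libraries. The CPM of Col3a1 at 4 h PI were 123, 154 and 229 in irradiated mice and 234, 206 and 302 in sham mice. A day after irradiation they were 303, 181 and 186. Those at 3 days were 476, 425 and 322 in irradiated mice, against 179.9, 169.6 and 186 in sham mice. The 3 sham mice at 3 days lay within a narrow range and below each irradiated mouse. Later, Col3a1 had 3214, 1912 and 2514 CPM in irradiated mice at 2 weeks, against 335, 493 and 239.9 CPM in sham mice. The 8-week values were 1667, 1575 and 1224 CPM in irradiated mice and 267, 178 and 220.2 CPM in sham mice. Irradiated mouse 2 at 2 weeks was the lowest of its group for Col3a1, as for the type I chains, and was still above every sham mouse. Col3a1 rose 7.18-fold at 2 weeks (log2 fold change 2.84 ± 0.34, edgeR adjusted p = 0.00434), 6.67-fold at 8 weeks (2.74 ± 0.20, adjusted p = 9.69e-05) and 2.26-fold at 3 days (1.17 ± 0.15, adjusted p = 0.00178).

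All 3 type V chains were higher in irradiated rectum at 2 and 8 weeks PI. Col5a1 and Col5a2 encode the chains of the common type V molecule, and mutations in either human gene cause classical Ehlers-Danlos syndrome. Col5a1 had 22.1, 29.1 and 33.2 CPM in the 3 irradiated mice at 4 h PI, against 37.1, 32.7 and 37.6 CPM in the 4 h sham mice. Irradiated mice at 1 day had 63.6, 38.2 and 36.4 CPM. At 3 days the values were 70.6, 56.3 and 46.1 CPM in irradiated mice and 26.5, 17.5 and 16.6 CPM in sham mice. Its mean was lowest in the sham mice at 3 days. Col5a1 was at 296, 237 and 372 CPM in irradiated mice at 2 weeks PI, against 49.5, 61.6 and 37.8 CPM in sham mice. At 8 weeks it had 178, 242 and 190.0 CPM in irradiated mice and 44.7, 31.5 and 39 CPM in sham mice. Col5a1 rose 6.10-fold at 2 weeks (log2 fold change 2.61 ± 0.25, edgeR adjusted p = 0.00301), 5.26-fold at 8 weeks (2.40 ± 0.17, adjusted p = 8.18e-05) and 2.83-fold at 3 days (1.5 ± 0.21, adjusted p = 0.0031).

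Col5a2, the partner chain of Col5a1, was called at the same 3 times. At 4 h PI Col5a2 had 20.1, 20.4 and 29.3 CPM in irradiated mice and 31.3, 23.5 and 35.9 CPM in sham mice. It had 44.8, 27.2 and 29.6 CPM in irradiated mice at 1 day. For 3 days, irradiated mice gave 49.4, 45.6 and 40.2 CPM, against 21.1, 18.6 and 23.4 CPM in sham mice. For Col5a1 and Col5a2 alike the groups overlapped at 4 h and 1 day and were apart at 3 days. At 2 weeks PI irradiated mice had 407, 312 and 445 CPM of Col5a2 and sham mice 41.3, 57.1 and 31.6 CPM. Irradiated mice had 253, 274 and 193 CPM at 8 weeks, against 38.2, 28.5 and 30.1 CPM in sham mice. Col5a2 rose 8.98-fold at 2 weeks (log2 fold change 3.17 ± 0.27, edgeR adjusted p = 0.00301), 7.39-fold at 8 weeks (2.88 ± 0.17, adjusted p = 5.3e-05) and 2.12-fold at 3 days (1.08 ± 0.13, adjusted p = 0.00142).

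Col5a3, the scarcest type V chain by FPKM at 8 weeks, was called higher at 2 and 8 weeks PI. The CPM of Col5a3 at 4 h PI were 4.97, 4.56 and 6.16 in irradiated mice and 4.86, 3.87 and 5.18 in sham mice. A day after irradiation they were 7.16, 4.55 and 4.95. Those at 3 days were 7.65, 7.32 and 7.13 in irradiated mice, against 5.49, 2.08 and 4.11 in sham mice. At 3 days the sham mice were spread over a wide range that stayed below the irradiated mice. Later, Col5a3 had 59.2, 32.8 and 53.7 CPM in irradiated mice at 2 weeks, against 12.4, 16 and 7.53 CPM in sham mice. The 8-week values were 27, 30.4 and 27.3 CPM in irradiated mice and 5.06, 5.54 and 6.57 CPM in sham mice. Sham mice at 2 weeks were all above the sham mice of the other times. Col5a3 rose 4.07-fold at 2 weeks (log2 fold change 2.02 ± 0.34, edgeR adjusted p = 0.0102) and 4.90-fold at 8 weeks (2.29 ± 0.14, adjusted p = 5.45e-05). At 3 days it missed the threshold (0.91 ± 0.34, adjusted p = 0.0949) and passed it with the replicate number as a block (0.99, adjusted p = 0.0398), in DESeq2 (adjusted p = 0.0466) and without sham mouse 1 (1.23, adjusted p = 0.0333).

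Col11a1, a chain of type XI collagen that starts fibrils in cartilage, was scarce in every group and was higher at 2 and 8 weeks PI. Col11a1 had 1.54, 1.69 and 2.19 CPM in the 3 irradiated mice at 4 h PI, against 1.99, 1.99 and 1.68 CPM in the 4 h sham mice. Irradiated mice at 1 day had 1.71, 1.67 and 1.69 CPM. At 3 days the values were 1.41, 0.946 and 1.25 CPM in irradiated mice and 0.872, 0.644 and 0.792 CPM in sham mice. These values rest on 13 to 43 counts per library, and the 3-day sham mice were below every other mouse. Col11a1 was at 4.77, 5.87 and 6.43 CPM in irradiated mice at 2 weeks PI, against 2.22, 2.87 and 1.66 CPM in sham mice. At 8 weeks it had 15.5, 7.85 and 9.16 CPM in irradiated mice and 1.9, 1.11 and 1.32 CPM in sham mice. It was the highest in irradiated mouse 1 at 8 weeks, and each irradiated mouse at 8 weeks exceeded each at 2 weeks. Col11a1 rose 2.53-fold at 2 weeks (log2 fold change 1.34 ± 0.28, edgeR adjusted p = 0.0187) and 7.43-fold at 8 weeks (2.89 ± 0.35, adjusted p = 0.000718). The 2-week call was lost without sham mouse 1 (adjusted p = 0.0798) or sham mouse 3 (adjusted p = 0.0691).

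Col24a1, a chain found in developing bone and cornea, was scarce until 3 days PI. At 4 h PI Col24a1 had 0.768, 0.973 and 0.509 CPM in irradiated mice and 1.18, 0.348 and 0.762 CPM in sham mice. It had 1.06, 1.11 and 0.613 CPM in irradiated mice at 1 day. For 3 days, irradiated mice gave 1.46, 0.349 and 0.748 CPM, against 0.667, 0.347 and 0.891 CPM in sham mice. Its counts were 7 to 29 per library at these times, and the groups overlapped at each. At 2 weeks PI irradiated mice had 5.66, 2.27 and 8.12 CPM of Col24a1 and sham mice 0.705, 0.955 and 0.301 CPM. Irradiated mice had 4.75, 11.8 and 5.7 CPM at 8 weeks, against 1.0, 0.856 and 0.509 CPM in sham mice. Irradiated mouse 2 was again the lowest at 2 weeks, and irradiated mouse 2 was the highest at 8 weeks. Col24a1 rose 8.14-fold at 2 weeks (log2 fold change 3.03 ± 0.61, edgeR adjusted p = 0.0165) and 9.25-fold at 8 weeks (3.21 ± 0.45, adjusted p = 0.00138). By FPKM the 2-week irradiated mice had 0.714, 0.26 and 2.92, so that mouse 3 was further from the others than in CPM. The 2-week call was lost without sham mouse 1 (adjusted p = 0.0682) or sham mouse 3 (adjusted p = 0.060), and in limma on log2(FPKM + 1) with no minimum (adjusted p = 0.178).

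Col27a1, a chain of cartilage and developing bone, was called higher at 3 days and at no other time against the controls set for each time. The CPM of Col27a1 at 4 h PI were 5.89, 5.84 and 7.89 in irradiated mice and 9.56, 7.05 and 9.39 in sham mice. A day after irradiation they were 10.2, 10.4 and 9.4. Those at 3 days were 13, 9.91 and 10.8 in irradiated mice, against 4.88, 2.97 and 3.36 in sham mice. The 3-day sham mice were below every other mouse, at 60 to 95 counts. Later, Col27a1 had 14.9, 8.04 and 11.8 CPM in irradiated mice at 2 weeks, against 6.04, 8.3 and 6.53 CPM in sham mice. The 8-week values were 7.17, 12.5 and 11.3 CPM in irradiated mice and 7.21, 7.51 and 8.81 CPM in sham mice. At 2 and 8 weeks the groups overlapped. Col27a1 rose 2.98-fold at 3 days (log2 fold change 1.57 ± 0.24, edgeR adjusted p = 0.00436). Against the 4 h sham mice this change was 0.39 and not called (adjusted p = 0.154). It stayed called against those of 2 weeks and 8 weeks (0.69 and 0.54, adjusted p 0.013 and 0.0241). With the 3-day sham mice Col27a1 was also called at 1 day (1.41, adjusted p = 0.0114). Against its own controls it was not called at 2 weeks (0.74 ± 0.27, adjusted p = 0.0862) or 8 weeks (0.38 ± 0.23, adjusted p = 0.222). It was called at 2 weeks in the fit of all 9 groups (0.75, adjusted p = 0.0145) and without irradiated mouse 2 (0.93, adjusted p = 0.0178), and at 8 weeks without irradiated mouse 1 (0.60, adjusted p = 0.0299).

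Col2a1, the main collagen of cartilage, was close to absent. It had 4, 5 and 0 counts in the irradiated mice at 4 h, 0, 2 and 0 at 1 day, 0 at 3 days, 1 in each at 2 weeks, and 0, 5 and 0 at 8 weeks. Sham mice had 2, 0 and 0 counts at 3 days and 0 in every other library, where a count of 0 still allows up to 3 counts. It did not pass the filter on low counts and was not tested. The other 9 chains were tested in all comparisons.

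**Figure D1:**
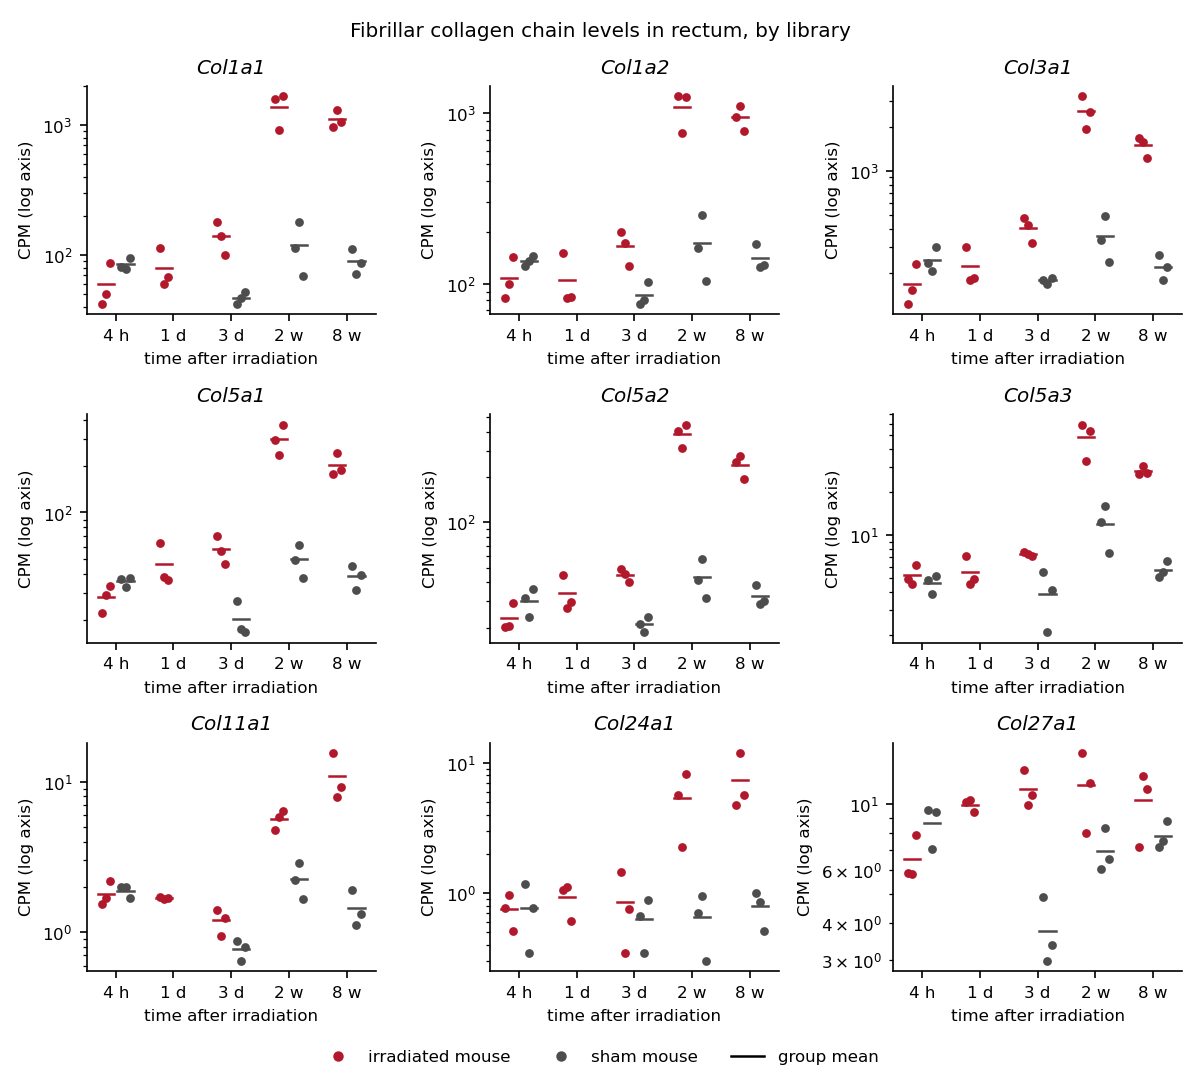
CPM (log axis) of 9 fibrillar collagen chains in each mouse, by time after irradiation; red points are irradiated mice, grey points sham mice and lines the group means, and Col2a1 is left out. Irradiated mice at 2 and 8 weeks stand above the sham mice for all chains but Col27a1, and sham mice at 3 days lie lowest for most chains.

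Of the 9 chains tested, 8 were called higher at 8 weeks PI, where 21.5% of all genes tested were called higher. At 2 weeks 8 were called higher, against 16.5% of all genes, and at 3 days 6, against 10.4%. None was called lower at these times, against 16.5% of all genes at 8 weeks, 9.3% at 2 weeks and 10.1% at 3 days. The median log2 fold change of the 9 was 2.74 at 8 weeks, 2.65 at 2 weeks and 1.08 at 3 days, and that of all genes tested was 0.01, 0.00 and 0.00. With the stricter cutoffs of the study (adjusted p under 0.01 and a change of over 1 on the log2 scale), 5 chains passed at 3 days, 5 at 2 weeks and 8 at 8 weeks, all higher, as did 2.26%, 4.52% and 11.6% of all genes. Every irradiated mouse lay above every sham mouse for 8 chains at 3 days, 8 at 2 weeks and 8 at 8 weeks, where that held for 21.2%, 25.1% and 28.3% of all genes. At 4 h 0 chains were called by edgeR and 0 by DESeq2, where edgeR called 11.5% of genes, and 1 (Col3a1, -0.55 ± 0.23) had an unadjusted p under 0.05. At 1 day 0 were called by either tool and 0 had an unadjusted p under 0.05, where edgeR called 4% of genes. Without irradiated mouse 3 at 4 h, Col1a1 (-0.87, adjusted p = 0.0164), Col1a2 (-0.58, adjusted p = 0.0436) and Col3a1 (-0.83, adjusted p = 0.0488) were called lower, and without irradiated mouse 1 at 1 day Col1a2 was (-0.70, adjusted p = 0.0188).

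**Figure D2:**
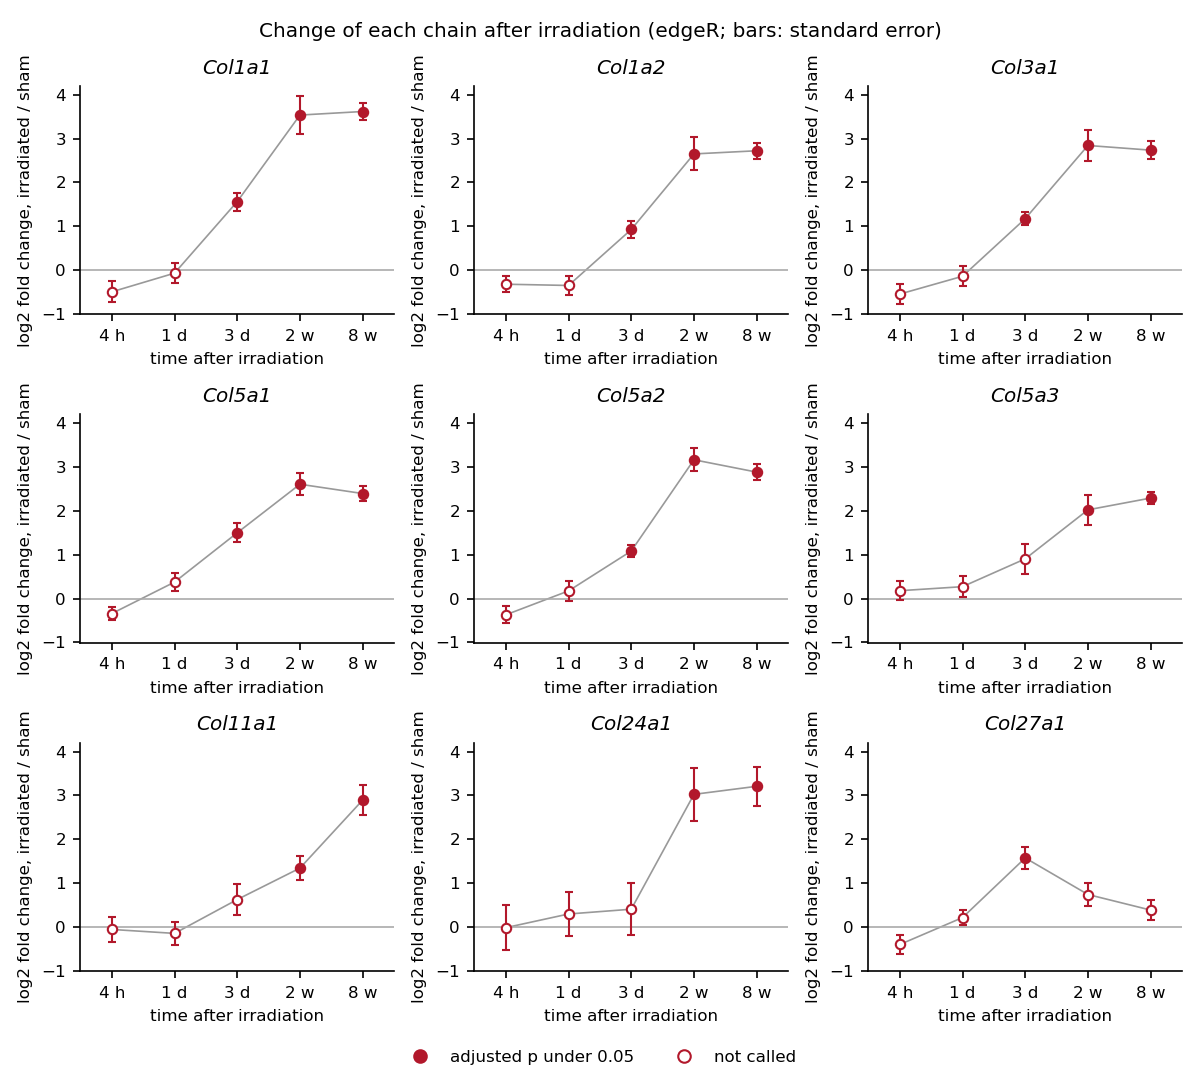
Log2 fold change of each chain, irradiated over sham, at the 5 times (points, with SE bars; filled points have an edgeR adjusted p under 0.05; the 1-day group is set against the 4 h sham mice). Col1a1 reached 3.54 at 2 weeks and 3.62 at 8 weeks. Col27a1 was highest at 3 days with 1.57, where its sham mice were below every other mouse.

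Whether the radiation effect itself differed between times was tested with interaction contrasts. From 4 h to 3 days it increased for 6 chains, where 9.59% of all genes were called higher: Col1a1 (2.09 ± 0.36), Col27a1 (2.01 ± 0.32), Col5a1 (1.87 ± 0.29), Col3a1 (1.75 ± 0.30), Col5a2 (1.49 ± 0.25) and Col1a2 (1.28 ± 0.29), with edgeR adjusted p between 0.00188 and 0.0116. From 3 days to 2 weeks it increased for 4, where 10.2% of genes were called: Col5a2 (2.08 ± 0.29), Col1a1 (1.97 ± 0.48), Col1a2 (1.72 ± 0.43) and Col3a1 (1.66 ± 0.37), with adjusted p between 0.00211 and 0.0228. Without 1 library the call of Col1a2 was lost (3-day sham mouse 3, adjusted p = 0.0574, or 2-week sham mouse 1, adjusted p = 0.0568), and Col5a1 (1.10 ± 0.35, adjusted p = 0.0511 with all libraries) was called without 2-week irradiated mouse 2 or sham mouse 2, with the replicate number as a block (1.11, adjusted p = 0.0491) and in DESeq2 (adjusted p = 0.0149). Col24a1 was also called without that irradiated mouse (adjusted p = 0.0228), in DESeq2 (adjusted p = 0.0296) and in the fit of all 9 groups (adjusted p = 0.0236). Col5a3 was called in the fit of all 9 groups (adjusted p = 0.0484). It was also called in limma on log2(FPKM + 1), with and without a minimum FPKM (adjusted p 0.0338 and 0.0436). Col27a1 had -0.84 ± 0.37 in this contrast (adjusted p = 0.137). From 2 to 8 weeks 0 chains were called by edgeR, where 1.28% of genes were called, and 1 had an unadjusted p under 0.05. That one was Col11a1 (1.56 ± 0.45, adjusted p = 0.127), which DESeq2 called (adjusted p = 0.0418). For Col1a1 the change in effect over this interval was 0.094 ± 0.46.

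The 3-day sham mice had the lowest mean CPM of the sham groups for each chain tested. How far this shaped the 3-day changes was not tested. In 3-day sham mice, set against 4 h sham mice, all 9 chains had negative log2 fold changes, between -1.29 for Col11a1 and -0.25 for Col5a3, with a median of -0.65. The groups did not overlap for 7 chains, where 11.4% of all genes were lower without overlap. Col1a1 averaged 46.8 ± 5.04 CPM in 3-day sham mice and 84.6 ± 9.17 CPM in 4 h sham mice (-0.85 ± 0.13). None of the 9 was called by edgeR (lowest adjusted p = 0.119), which called 0% of 14464 genes in this comparison. An unadjusted p under 0.05 was reached by 7 chains and by 2299 genes. DESeq2 called 504 genes, among them Col1a1, Col1a2, Col5a1 and Col27a1. Without 3-day sham mouse 1, edgeR called Col1a1, Col5a1 and Col27a1 lower.

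For the 6 chains called at 3 days, the log2 fold change was smaller against sham mice of any other time, and against those of 2 weeks 5 of them were not called. Set against the 4 h sham mice, Col1a1 changed by 0.74 (adjusted p = 0.0295), and 5 chains were called (Col1a1, Col3a1, Col5a1, Col5a2 and Col5a3). Set against the 8-week sham mice it changed by 0.66 (adjusted p = 0.0336), and 5 chains were called (Col1a1, Col3a1, Col5a1, Col5a2 and Col27a1). Set against the 2-week sham mice its difference was 0.22 (adjusted p = 0.601). There, Col27a1 alone was higher (0.69, adjusted p = 0.013), Col5a3 was lower (-0.70, adjusted p = 0.0482), and Col1a2 had -0.050 (adjusted p = 0.908). The direction of Col11a1, which was not called in any of the 4 comparisons, was 0.62 against the 3-day sham mice and turned to -0.63, -0.90 and -0.25 against those of 4 h, 2 weeks and 8 weeks (adjusted p 0.186, 0.0641 and 0.614). The comparisons with 2-week and 8-week sham mice were added after the data were seen. For the sham mice of other times the share of all genes called was not counted. Smooth muscle markers summed to 2096 to 2992 CPM in 3-day sham mice and 3854 to 4201 CPM in 4 h sham mice. Fibroblast markers summed to 113 to 122 CPM in 3-day sham mice and 145 to 159 CPM in 4 h sham mice. The part of either set in the difference was not tested.

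**Figure D3:**
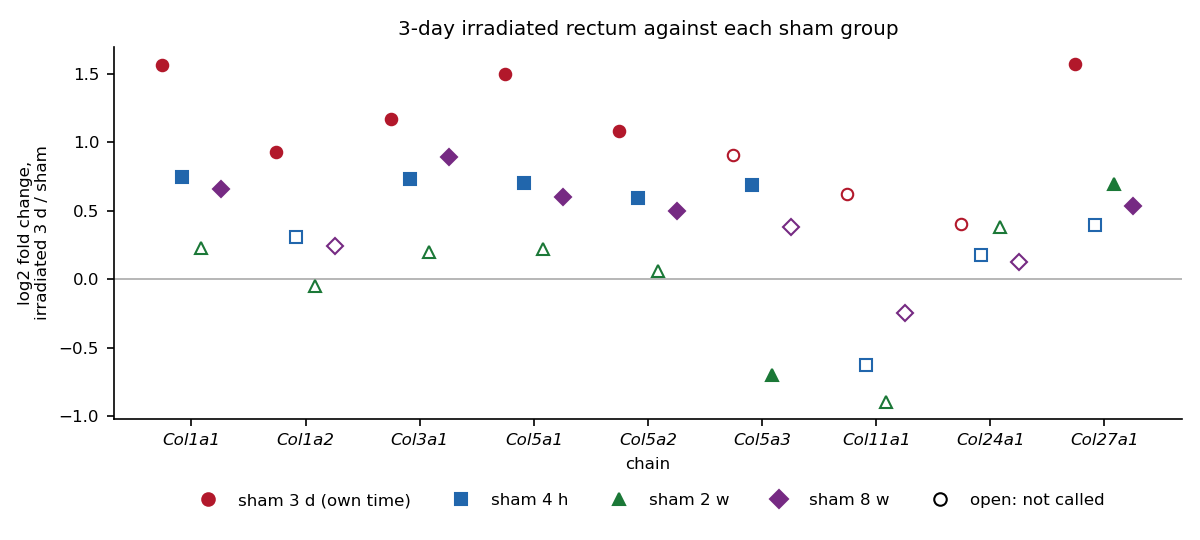
Log2 fold change of each chain in 3-day irradiated mice over the sham mice of 3 days, 4 h, 2 weeks or 8 weeks (filled: adjusted p under 0.05). For Col1a1 it is 1.56 against its own sham group and 0.74, 0.22 and 0.66 against those of 4 h, 2 weeks and 8 weeks.

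Among the later sham groups Col5a3 was higher in 2-week than in 4 h sham mice (12 ± 4.25 against 4.64 ± 0.68 CPM, log2 fold change 1.38 ± 0.27, edgeR adjusted p = 0.027), where 2.94% of genes were called higher. This call was lost when any 1 of the 6 libraries but 2-week sham mouse 3 was left out (adjusted p 0.0545 to 0.104). In 8-week against 4 h sham mice 0 chains were called by edgeR or DESeq2, 0 had an unadjusted p under 0.05, and 2.82% of genes were called. With the 4 h sham mice in place of their own controls, 8 chains were called higher at 2 weeks and 8 at 8 weeks. The share of all genes called was not counted in these 2 comparisons. In irradiated mice, 1 day against 4 h, 0 chains were called by edgeR, where 11.4% of genes were called, and 3 had an unadjusted p under 0.05. Of these, Col5a1 (0.72 ± 0.24) and Col27a1 (0.62 ± 0.18) were called by DESeq2.

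The proportions of the main chains also differed. The Col1a1 to Col1a2 ratio, taken on FPKM, was 1.19, 1.13 and 1.24 in irradiated mice at 2 weeks PI, against 0.643, 0.659 and 0.612 in sham mice. At 8 weeks it was 0.935, 1.09 and 1.08 in irradiated mice and 0.582, 0.518 and 0.606 in sham mice. Irradiated mice lay above 0.9 and sham mice below 0.7 at both times. At 3 days the mean ratio was 0.726 ± 0.0626 in irradiated and 0.50 ± 0.0378 in sham mice, and at 1 day 0.689 ± 0.0453 in irradiated mice, against 0.558 ± 0.0374 in the 4 h sham mice, in both cases without overlap. At 4 h it was 0.491 ± 0.0529 in irradiated and 0.558 ± 0.0374 in sham mice (log2 difference -0.19, exact two-sided permutation p = 0.2). The log2 difference was 0.86 at 8 weeks, 0.89 at 2 weeks, 0.54 at 3 days and 0.30 at 1 day, each with an exact permutation p = 0.1, the smallest that 3 against 3 allows (0.143 adjusted over 10 ratio tests), so that this design cannot reach 0.05.

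The Col3a1 to Col1a1 ratio went the other way. It was 2.03, 1.82 and 1.33 in irradiated mice at 2 weeks and 2.71, 2.52 and 3.1 in sham mice. At 8 weeks it was 1.63, 1.06 and 1.22 in irradiated mice, against 2.21, 2.32 and 2.31 in sham mice. At 3 days irradiated mice averaged 2.79 ± 0.327 and sham mice 3.5 ± 0.194. The 3-day sham mean was the highest of the sham groups, where 4 h had 2.75 ± 0.177, 2 weeks 2.78 ± 0.296 and 8 weeks 2.28 ± 0.0617. The part of the sham level in the 3-day difference was not tested. The log2 differences at 3 days, 2 weeks and 8 weeks were -0.33, -0.70 and -0.83, again with the smallest exact permutation p of 0.1 (adjusted 0.143). At 4 h the difference was -0.012 and at 1 day -0.13 (exact permutation p = 0.9 and 0.2).

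**Figure D4:**
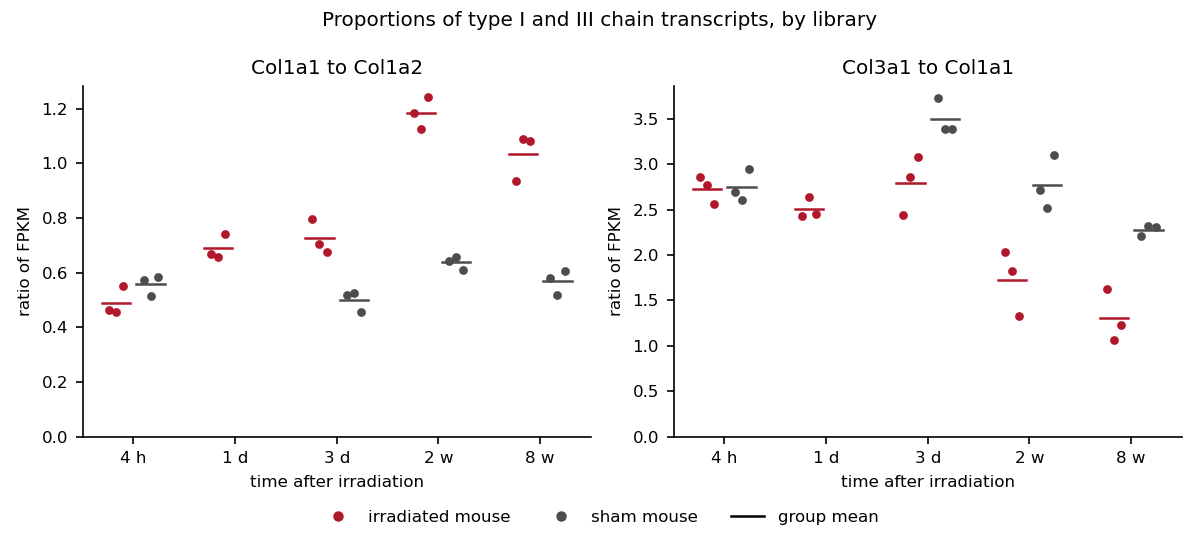
Ratio of FPKM of Col1a1 to Col1a2 (left) and of Col3a1 to Col1a1 (right) in each mouse by time after irradiation; red points are irradiated mice, grey points sham mice and lines the group means. The Col1a1 to Col1a2 ratio is above 0.9 in all irradiated mice at 2 and 8 weeks and below 0.7 in all sham mice.

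Over the 27 libraries the other chains tracked Col1a1 to different degrees, which is given as a description, since the libraries share groups and times. The Pearson correlation of log2(CPM + 1) with Col1a1 was 0.994 for Col1a2, 0.991 for Col5a2, 0.987 for Col3a1, 0.981 for Col5a1, 0.953 for Col5a3, 0.904 for Col24a1, 0.887 for Col11a1, 0.588 for Col27a1 and 0.0495 for Col2a1. Col27a1 and the nearly silent Col2a1 had the lowest values. Among the other genes with a mean of at least 1 CPM (14050 genes ranked, chains included), the 8 most like Col1a1 were Loxl1 (0.988), Adamts2 (0.982), Rcn3 (0.982), Igfbp4 (0.98), Grem1 (0.98), Mrc2 (0.978), Sparc (0.976) and Col6a2 (0.975).

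The genes that make, trim and crosslink these chains were counted from named lists, to be read against the share of all genes called higher (21.5% at 8 weeks, 16.5% at 2 weeks and 10.4% at 3 days) or lower (16.5%, 9.3% and 10.1% at the same times). Of 17 genes of procollagen synthesis and folding, 15 were called higher at 8 weeks PI, 13 at 2 weeks and 7 at 3 days, and none lower. The median log2 fold change of the list was 1.55 at 8 weeks, against 0.01 for all genes. Crtap, part of the complex that hydroxylates prolines, had 1.55 ± 0.12 at 8 weeks, Plod2, which hydroxylates telopeptide lysines, 2.05 ± 0.17, and P3h1, a prolyl 3-hydroxylase, 1.86 ± 0.17 (edgeR adjusted p 0.00011, 0.000158 and 0.000255). Of 8 procollagen trimming genes tested, 4 were higher and 3 lower at 8 weeks, 5 higher and 1 lower at 2 weeks, and 2 higher and 1 lower at 3 days. Bmp1, the C-propeptidase, had 2.42 ± 0.10 at 8 weeks, the N-propeptidase Adamts2 2.34 ± 0.13, its relative Adamts3 3.94 ± 0.22, and Mep1a, a brush border metalloprotease of epithelium, -1.98 ± 0.27 (adjusted p 1.37e-05, 3.68e-05, 4.09e-05 and 0.00129). All 5 lysyl oxidases, which start the crosslinks between collagen molecules, were higher at 8 weeks and at 2 weeks, and 2 at 3 days. Lox averaged 112 ± 25.1 CPM in irradiated and 1.55 ± 0.205 CPM in sham mice at 8 weeks (6.16 ± 0.22, adjusted p = 6.83e-06), Loxl1 had 2.06 ± 0.14 and Loxl2 2.91 ± 0.25 (adjusted p 7.73e-05 and 0.000181).

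Among 13 fibril surface proteoglycans and partners tested, 8 were higher and 2 lower at 8 weeks, 6 higher and 1 lower at 2 weeks, and 4 higher at 3 days. The proteoglycan Bgn had 2.75 ± 0.14 at 8 weeks, Sparc, a collagen-binding matricellular protein, 2.82 ± 0.15, and Thbs2 3.32 ± 0.33, whereas Tnxb, whose loss in humans causes a form of Ehlers-Danlos syndrome, fell (-1.31 ± 0.18), with edgeR adjusted p of 3.16e-05, 3.68e-05, 0.000321 and 0.00136. Of 10 collagen receptors tested, 4 were higher and 1 lower at 8 weeks and at 2 weeks, and 3 higher and 1 lower at 3 days. Mrc2, an uptake receptor for collagen fragments, had 2.30 ± 0.19, the inhibitory leukocyte receptor Lair1 2.03 ± 0.24, the integrin chain Itga2 1.70 ± 0.22 and the platelet receptor Gp6 -1.95 ± 0.35 at 8 weeks (adjusted p 0.000163, 0.000699, 0.000955 and 0.00424). Of 11 genes of collagen degradation and its inhibitors, 8 were higher at 8 weeks, 8 higher and 1 lower at 2 weeks, and at 3 days 3 of 10 tested were higher and 1 lower. The inhibitor Timp1 had 7.45 ± 0.43 at 8 weeks, the membrane collagenase Mmp14 1.73 ± 0.11 and the gelatinase Mmp2 3.00 ± 0.20 (adjusted p 4.66e-05, 6.18e-05 and 7.92e-05). Of 15 genes of the TGF-beta axis, 13 were higher and 1 lower at 8 weeks, 12 higher at 2 weeks and 5 higher at 3 days. Tgfbi had 2.31 ± 0.12, Ltbp2 5.42 ± 0.40 and the ligand Tgfb1 2.01 ± 0.17 at 8 weeks, and the inhibitory Smad7 fell (-1.04 ± 0.11), with adjusted p of 3.68e-05, 0.000102, 0.000158 and 0.000396.

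Markers of the cell types in the tissue moved at the same times, and their part in the collagen changes was not tested. Of all genes tested, 21.5% were called higher and 16.5% lower at 8 weeks. At 2 weeks 16.5% were called higher and 9.3% lower, and at 3 days 10.4% and 10.1%. Fibroblast markers (8 genes) summed to 234 to 424 CPM in irradiated and 146 to 219.9 CPM in sham mice at 2 weeks PI, and at 8 weeks to 242 to 263 CPM in irradiated and 143 to 217 CPM in sham mice, with 5 of 8 called higher and 1 lower at each time and 0 of 8 at 3 days. Fbln1 had 1.18 ± 0.19 and Dpt -0.65 ± 0.24 at 8 weeks (edgeR adjusted p 0.00243 and 0.0692). Smooth muscle markers (7 genes) summed to 2509 to 3004 CPM in irradiated and 3866 to 5499 CPM in sham mice at 2 weeks, where 4 were called lower, and 3 were lower at 8 weeks (Tagln -0.44 ± 0.13, adjusted p = 0.0333, and Acta2 -0.27 ± 0.14, adjusted p = 0.159). Colon epithelium markers summed to 10624 to 12289.9 CPM in irradiated and 13835 to 15624 CPM in sham mice at 8 weeks, with 5 of 8 lower and 1 higher, where 16.5% of all genes were called lower. The lower ones included Krt8 (-1.04 ± 0.19) and Krt19 (-0.93 ± 0.16). At 2 weeks 0 of 8 were lower and 1 was higher, and the sums overlapped (7469 to 13272 CPM in irradiated and 11738 to 12072 CPM in sham mice). The epithelial sum was 7469 CPM or more in every library, so that the defining markers of the labelled tissue were present throughout.

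Leukocyte markers were higher for 6 of 8 genes at 2 weeks and at 8 weeks, and their sum was 560.4 to 9283 CPM in irradiated and 34.6 to 47 CPM in sham mice at 2 weeks (S100a8 12.24 ± 1.56, adjusted p = 0.00509, and Itgam 6.71 ± 1.00, adjusted p = 0.00741). Within the 2-week irradiated mice the leukocyte sum was 2203, 560.4 and 9283 CPM for mice 1, 2 and 3, and mouse 2 was also the lowest in Col1a1, Col1a2, Col3a1, Col5a1, Col5a2, Col5a3, Col24a1 and Col27a1. Mouse 3 was below mouse 1 in Col1a2, Col3a1 (2514 against 3214 CPM), Col5a3 and Col27a1. It was above mouse 1 in Col1a1, Col5a1, Col5a2, Col11a1 and Col24a1. Col11a1 was lowest in mouse 1 (4.77 CPM). Endothelial markers were higher for 5 of 6 genes at both times (Pecam1 1.15 ± 0.26 and Vwf 1.25 ± 0.35 at 8 weeks), and neuron and glia markers for 4 of 8 (Ret 1.98 ± 0.17 and Uchl1 1.25 ± 0.24 at 8 weeks). Of all genes tested, 16.5% were called higher at 2 weeks and 21.5% at 8 weeks. Squamous epithelium markers were higher for 8 of 8 genes at 8 weeks, where they summed to 4837 to 6316 CPM in irradiated and 4.21 to 6.1 CPM in sham mice (Krt14 9.53 ± 0.27, Krt5 12.50 ± 0.64). They also stood at 485, 5.56 and 7.3 CPM in irradiated mice 1, 2 and 3 at 1 day. There, mouse 1 had the highest CPM of its group for each chain tested but Col24a1 and Col27a1. Irradiated mouse 3 at 4 h had 119.6 CPM of these squamous markers, and the highest CPM of its group for each chain tested but Col24a1. Other marker sums also ranged widely in these groups. Irradiated mice at 1 day had 2535 to 5164 CPM of smooth muscle, 84.4 to 169 of fibroblast and 72.6 to 117 of endothelial markers. At 4 h the smooth muscle sum was 3481 to 4757 CPM in irradiated mice. The part of any of these sums in the collagen levels was not tested. Cartilage and bone markers stayed between 1.01 and 5.83 CPM in sum in all libraries. Of these, Comp was higher (2.69 ± 0.41) and Hapln1 lower (-2.99 ± 0.41) at 8 weeks, Acan had counts in 8 of 27 libraries at up to 0.149 CPM, and no marker of any list was at 0 in all libraries.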

How the data were processed

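Bulk RNA-seq libraries of mouse rectum (27, from 9 groups) were analysed. Per the study's methods and the submitters' processing notes, the authors filtered paired-end reads with fastp 0.18.0, aligned them to mm9 with HISAT2, assembled transcripts with StringTie 1.3.1 and computed FPKM with RSEM. The deposited files hold whole-number counts per gene, not normalized, and the authors' FPKM. For the gene counting itself, the program, annotation and strand setting were not given in the sources used here. Overlapping or antisense genes could therefore not be told apart.

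Counts were tested with edgeR 4.0.16 (filterByExpr, TMM, quasi-likelihood, Benjamini-Hochberg; R 4.3.3) within the groups compared, although the study used DESeq2. DESeq2 1.42.0, limma 3.58.1 on log2 FPKM, other scalings and filters, 1 fit of all 9 groups, other sham groups and leaving out each library were alternatives. FPKM ratios were compared by exact permutation. The script was tested on simulated data. Total counts of 17966356 to 23281174 leave chains under 1 CPM on some 20 counts or fewer. No extraction or sequencing batch was named in the labels.

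Members and gene lists were chosen with earlier results of these data known. The text names all 10 members, and from each other collagen list the 3 smallest p-values in the main direction and 1 in the other at 8 weeks. It names the 2 most abundant markers of each list and the 8 genes most correlated with Col1a1. Pcolce and Myh11 were not analysed here. GEO's labels number mice 1 to 3 in each group. At 3 days same-numbered irradiated and sham mice deviated together (correlations 0.369, 0.447 and 0.442, the highest other 0.0591). The numbers may therefore mark pairs there. The main tests used no pairing, and a fit with the replicate number as a block was run as an alternative. The same possible pairs stand in the 2 contrasts of effects that use the 3-day mice. No other pair of groups passed this check. Sequences are RefSeq's, and figures were drawn with matplotlib 3.10.9.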

Additional observations from a re-analysis of the deposited data

Results flagged for a closer look

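Radiation effects that differed between times by the edgeR interaction test stand out for a closer look. The effect at 3 days exceeded that at 4 h by 2.09 (log2) for Col1a1, 1.28 for Col1a2, 1.75 for Col3a1, 1.87 for Col5a1, 1.49 for Col5a2 and 2.01 for Col27a1, with adjusted p between 0.00188 and 0.0116. At 3 days each of the 3 irradiated mice lay above each of the 3 sham mice for these chains. The effect at 2 weeks exceeded that at 3 days by 1.97 for Col1a1, 1.72 for Col1a2, 1.66 for Col3a1 and 2.08 for Col5a2, with adjusted p between 0.00211 and 0.0228. Both sets of values use the 3-day sham mice, which had the lowest mean CPM of all 9 groups for each of these chains but Col3a1, and the part of that in the differences was not tested.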

How the results depend on the processing

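At 2 and at 8 weeks 8 chains were called also under both other scalings, both other count filters, DESeq2, the replicate block and the 4 h sham mice. Limma on FPKM with a minimum of 1 tested fewer chains and called 6 at each time. With no minimum it called 8 at 8 weeks and 7 at 2 weeks, where Col24a1 lost its call (limma adjusted p = 0.178). With another sham group the early results moved, and the share of all genes called was not counted there. With the 3-day sham mice, 2 chains were called at 1 day (Col5a1 1.19, Col27a1 1.41), and with the 2-week sham mice 2 chains were called at 3 days, where Col1a2 (-0.050) and Col5a3 (-0.70) changed sign. Col11a1, never called at 3 days, changed sign with each of the 3 other sham groups (-0.90 with that of 2 weeks). DESeq2 called 4 chains for 3-day against 4 h sham mice and 2 for 1 day against 4 h in irradiated mice. It called 6 for the effect at 2 weeks minus that at 3 days and 1 for the effect at 8 weeks minus that at 2 weeks. The fit of all 9 groups called 1, 7 and 1 for 3-day against 4 h sham mice, the effect at 2 weeks minus that at 3 days, and the effect at 8 weeks minus that at 2 weeks. It also called 9 at 2 weeks, adding Col27a1, and 7 at 3 days, adding Col5a3. For 2-week against 4 h sham mice the 3 limma settings called 0. The cause was not tested.

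Leaving out 1 library gave 0 to 3 calls at 4 h (3 without irradiated mouse 3), 0 to 1 at 1 day (1 without irradiated mouse 1), 5 to 7 at 3 days, 6 to 9 at 2 weeks and 8 to 9 at 8 weeks. It gave 0 to 3 for 3-day against 4 h sham mice (3 without 3-day sham mouse 1), 0 to 1 for 2-week against 4 h sham mice and 3 to 6 for the effect at 2 weeks minus that at 3 days, and 6 throughout for 3 days minus 4 h. No chain was called in any left-out fit for 8-week against 4 h sham mice, 1 day against 4 h in irradiated mice, or the effect at 8 weeks minus that at 2 weeks. The Col3a1 to Col1a1 log2 difference at 4 h ranged over -0.050 to 0.039, and the 9 other ratio differences kept their sign.

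The replicate block called 7 chains at 3 days, the seventh being Col5a3, and 5 for the effect at 2 weeks minus that at 3 days, the fifth being Col5a1; it changed no other count. Of 1047 values of single chains under other settings, 984 kept direction and side of the threshold, 11 lost and 29 gained a call, 2 changed sign (Col1a2 and Col5a3, above), and 21 uncalled values changed sign. Over left-out libraries the counts were 738, 13, 13, 0 and 46 of 810. Depth limits Col2a1, Col24a1 and Col11a1, and the ratios cannot reach an exact permutation p under 0.1 with 3 mice a group.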
